A study of Bos taurus with 42 samples.

Results

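The piRNA cluster at positions 110178897 to 110333441 of bovine chromosome 6 (build UMD3.1/bosTau8, 154545 bases) was followed through oocytes, embryos and cultured cells. Its members are the table entries whose annotation names this interval first. They number 426 of 12345 entries in all, and of 9474 entries annotated to a piRNA cluster. Of the 426, 111 carry no base change in that first name (exact entries), and 315 carry a change written with an arrow, such as 14G->A, always 1 change per entry. Each entry is an annotation string with 1 to 3 places and stands for the reads given that annotation, so it may hold more than 1 RNA sequence. The nucleotide sequences were not used here. The labels do not say from which end a position is counted, nor which base of the pair was the one in the read.

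Small RNA from bovine samples was sequenced to compare embryos made by fertilisation with embryos made by cloning. Oocytes were at metaphase II after maturation in culture. IVF embryos were fertilised in vitro with semen of a Holstein bull. NT embryos were made by somatic cell nuclear transfer, in which the nucleus of a cultured cell replaces that of the oocyte. The nuclear donors were ear fibroblasts from a single Brahma and Spanish cross bull, and the fibroblast libraries come from such cultures. Embryos of both kinds were kept on cumulus cells and pooled by 20 at day 2 (2-cell), day 3 (8-cell), day 6 (morula) and day 8 (blastocyst). Cells grown out of IVF and NT blastocysts are called blastocyst-derived cells. There are 42 libraries in 12 groups of 3 or 4. The labels give 4 pools per embryo group in one place and 3 pools in another, and p-values measure the spread between these pools or cultures only.

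piRNAs are small RNAs carried by PIWI proteins, which in germ cells silence transposons by cleaving their transcripts or by guiding chromatin marks. Most are made from long transcripts of a limited number of genomic clusters, each giving rise to many different piRNAs. The oocytes of cattle and humans are rich in piRNAs, and these can persist in the early embryo as maternal RNA. Body cells such as fibroblasts have little or no piRNA.

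Listed reads, those of the entries in the table, ranged from 25119 to 3081186 per library with a median of 608571.5. All 12345 entries were found in NT 2-cell replicate 4, so the list is what that library holds, and an RNA absent from it could not be seen in any other group. Some libraries of IVF morulae stood apart from their group. IVF morula replicate 1 had 0 cluster reads among 1125 piRNA reads, where 3 reads would be a share of 0.267%. In that library a list of 8 fibroblast and mesenchymal miRNAs held 7.92% of listed reads, against 0.432% to 0.483% in IVF morula replicates 2 and 4. Most other marker lists were raised there too. The epithelial list held 0.916% (0.0643% to 0.0829% in replicates 2 and 4). The cumulus and granulosa list, which shares 1 miRNA with the first, held 5.305% (0.354% to 0.447%). The muscle and neural list held 0.055% (0.00423% to 0.0074%), and the blood list was not raised. The source of these reads was not tested. IVF morula replicate 3 had the fewest listed reads of all, with 841 cluster reads. Morula values are therefore given for IVF replicates 2 and 4 (n = 2) where a mean is printed.

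The chromosome 6 cluster was the largest source of piRNA reads in oocytes. It held 32.8% of them, ahead of a chromosome 17 cluster (62734087 to 62862016) with 17.9% and a chromosome 23 cluster (13905000 to 14137856) with 17.6%. The next cluster, on chromosome 14, held 4.71%, and 616 clusters were named first by at least 1 entry. In the 3 oocyte libraries the chromosome 6 share was 32.3%, 33.3% and 32.8% of piRNA reads, from 119071, 154314 and 144280 cluster reads. The 3 libraries were close together, with an SD of 0.487 points.

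Through cleavage this share of the piRNA pool stayed between narrow bounds. It was 32.1% ± 0.670 (SD, n = 4) in IVF and 32.3% ± 0.208 (SD, n = 4) in NT 2-cell embryos. At the 8-cell stage it was 33.1% ± 0.789 (SD, n = 3) in IVF and 32.3% ± 0.817 (SD, n = 4) in NT embryos. At the morula stage it was 33.3% in IVF (n = 2) and 33.9% ± 0.0779 (SD, n = 3) in NT embryos. IVF blastocysts had 34.1%, 32.5% and 34.8%, and NT blastocysts 33.0%, 32.7%, 34.8% and 35.4%. The blastocyst values overlapped those of oocytes. The mean difference from oocytes was 0.984 points in IVF blastocysts (2-sided exact permutation p = 0.3, adjusted p = 0.514) and 1.18 points in NT blastocysts (exact permutation p = 0.286, adjusted p = 0.514). Both comparisons use the same 3 oocyte libraries. With 3 against 3 libraries the smallest exact p is 0.1. In the NT blastocyst comparison it is 0.0286, which alone among the 12 tests adjusts to 0.343, so a single difference in shares could not pass the threshold of 0.05.

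**Figure D1:**
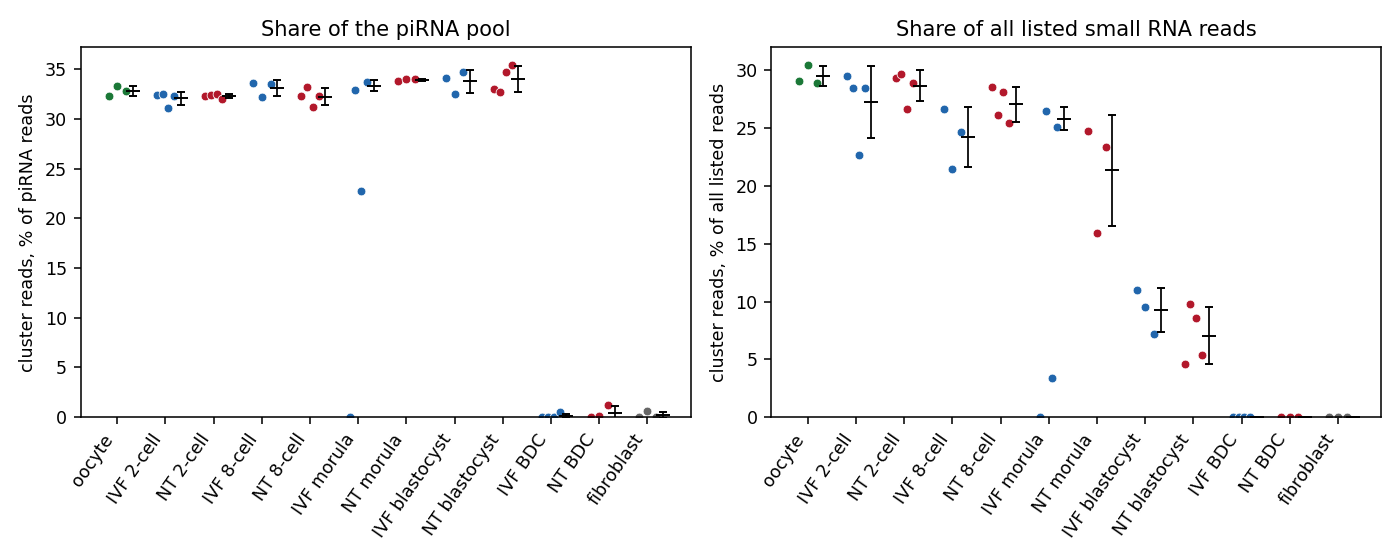
Share of the chromosome 6 cluster in piRNA reads and in all listed reads (percent) for each library, by group; points are libraries and bars are the mean with SD (IVF morula: mean of replicates 2 and 4). From oocyte to blastocyst the group means of the share of piRNA reads lie between 32.1% and 34.0%, while the share of listed reads is 29.5% in oocytes and 9.25% and 7.06% in IVF and NT blastocysts.

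The share of all listed reads behaved differently and moved with the piRNA class as a whole. It was 29.5% ± 0.853 (SD, n = 3) in oocytes, 27.3% ± 3.12 (SD, n = 4) in IVF and 28.7% ± 1.35 (SD, n = 4) in NT 2-cell embryos, and 24.3% ± 2.61 (SD, n = 3) in IVF and 27.1% ± 1.52 (SD, n = 4) in NT 8-cell embryos. Morulae had 25.8% in IVF (n = 2) and 21.4% ± 4.77 (SD, n = 3) in NT embryos. IVF blastocysts had 11.0%, 9.55% and 7.22%, and NT blastocysts 4.56%, 9.75%, 8.55% and 5.36%. No blastocyst library reached the lowest oocyte value, 28.9%. Entries of all piRNA clusters together were 89.9% ± 1.73 (SD, n = 3) of listed reads in oocytes, 27.5% ± 5.97 (SD, n = 3) of those in IVF blastocysts and 20.8% ± 7.66 (SD, n = 4) of those in NT blastocysts. Reads divided by the authors' size factor (normalised reads) averaged 620933 per oocyte library for the whole cluster, and were 22.0-fold lower in IVF and 36.9-fold lower in NT blastocysts. These folds rest in large part on the size factors, with means of 0.229 in oocytes, 1.35 in IVF and 1.93 in NT blastocysts. Mean listed reads were similar, at 471504, 433823 and 455583. The mean share of listed reads went from 29.5% to 9.25% and 7.06%. Fibroblast and mesenchymal miRNAs were 0.140% to 0.409% of listed reads in oocytes and 0.373% to 1.48% in blastocysts, and their part in the difference was not tested. All these values are relative to other reads. In these bulk samples, fewer cells with the RNA, less RNA per cell and more of other small RNAs cannot be told apart.

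A single exact entry carried most of the cluster's reads. Unchanged reads placed only at this locus share 1 annotation, so this entry may pool many RNA sequences. Its annotation names only the cluster and a wider listing of the same locus (110174004 to 110336024), which extends 4893 bases before and 2583 bases after it. This main entry had 107615, 139835 and 132023 reads in the 3 oocyte libraries, or 90.4%, 90.6% and 91.5% of cluster reads. It held 87.7%, 88.1% and 86.9% in IVF blastocysts and 86.4%, 88.1%, 86.9% and 87.1% in NT blastocysts. Every blastocyst library was below every oocyte library. The other entries share the remainder, and 325 of the 426 were found in at least 1 oocyte library.

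On the deposited log2 scale, the main entry was 5.36 lower in NT blastocysts than in oocytes (SE 1.86, adjusted p = 0.0155, limma) and passed the test. The IVF value was a difference of -4.50 (SE 1.99, adjusted p = 0.0699, limma), which did not pass, but did in a fit on these groups alone (adjusted p = 6.66e-05, limma). The NT difference was -3.80 with median centring (adjusted p = 0.0866, limma) and -1.20 with quantile normalisation (adjusted p = 0.655, limma), neither of which passed. The difference between both blastocyst groups was not called. Set per 1000000 piRNA reads (piRNA RPM, a scale that leaves out every other RNA class), the main entry's log2 difference from oocytes was -0.01 in both (adjusted p = 1, and 0.911 and 0.885 without IVF morula 1 and 3, limma), so its level relative to other piRNAs was close to that in oocytes.

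Among the 420 members with enough reads to be tested, lower values outnumbered higher ones in each comparison with oocytes. In IVF blastocysts 210 were lower and 0 higher, beside 33.9% lower and 1.49% higher over all 12039 tested entries. In NT blastocysts 232 were lower and 0 higher, beside 38.5% lower and 1.91% higher over all. The median log2 difference of the members was -1.70 in IVF and -1.79 in NT blastocysts, against -0.86 and -0.87 over all entries. With each library centred on its median, the median over all entries became 0.70 and 0.69, and that of the members -0.14 and -0.24. The members called were then 1 higher and 57 lower in IVF blastocysts (13.8% of members, beside 12.6% of all entries) and 35 higher and 92 lower in NT blastocysts (30.2%, beside 29.2%), close to the share over all entries. The counts thus depended on the scaling. They also rest mostly on entries with few reads, among which the fit makes too many calls. A limit of a mean of 50 or more normalised reads over all libraries, set after seeing the data, left 42 members. Of these, 36 were lower in IVF and 39 in NT blastocysts and 0 were higher. That is 85.7% and 92.9%, beside 68.7% and 75.1% called over the 1111 such entries. Members reach such a mean mainly through oocytes and early embryos. Whole-cluster means were 620933 in oocytes and 28268 and 16817 in IVF and NT blastocysts. The direction of these counts was thus largely set by the limit.

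Both exact and arrow entries were among those called, with the same limit for entries with few reads. In IVF blastocysts 48 of 109 exact entries were lower (median -1.46) and 162 of 311 arrow entries (median -1.87). In NT blastocysts the counts were 53 of 109 (median -1.56) and 179 of 311 (median -1.98). On the piRNA RPM scale fewer members differed from oocytes. In IVF blastocysts 0 rose and 48 fell, beside 0.721% and 8.45% of the 9288 piRNA entries tested, and in NT blastocysts 2 rose and 54 fell, beside 0.743% and 11.2%. With IVF morula replicates 1 and 3 left out of the fit, a setting chosen after seeing the data, 9 rose and 66 fell in IVF (2.1% and 12.1% of all) and 10 rose and 73 fell in NT blastocysts (2.03% and 14.5%).

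The reads of arrow entries made up 8.38%, 8.17% and 7.30% of cluster reads in oocytes. In IVF blastocysts they made up 10.4%, 10.2% and 10.8%, and in NT blastocysts 11.6%, 10.2%, 11.2% and 10.9%. Blastocyst and oocyte libraries did not overlap. The difference was 2.51 points in IVF blastocysts (exact permutation p = 0.1, the smallest possible, adjusted p = 0.514) and 3.03 points in NT blastocysts (exact permutation p = 0.0286, the smallest possible, adjusted p = 0.343). Neither passed after adjustment over the 12 share tests. IVF and NT 2-cell embryos, with 7.68% ± 0.560 (SD, n = 4) and 7.71% ± 0.780 (SD, n = 4), overlapped oocytes. The means of later stages lay between those of oocytes and blastocysts, at 8.63% ± 0.566 (SD, n = 3) and 8.12% ± 0.843 (SD, n = 4) in IVF and NT 8-cell embryos and 8.84% ± 0.646 (SD, n = 3) in NT morulae. IVF morula replicates 2 and 4 had 10.3% and 8.67%.

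**Figure D2:**
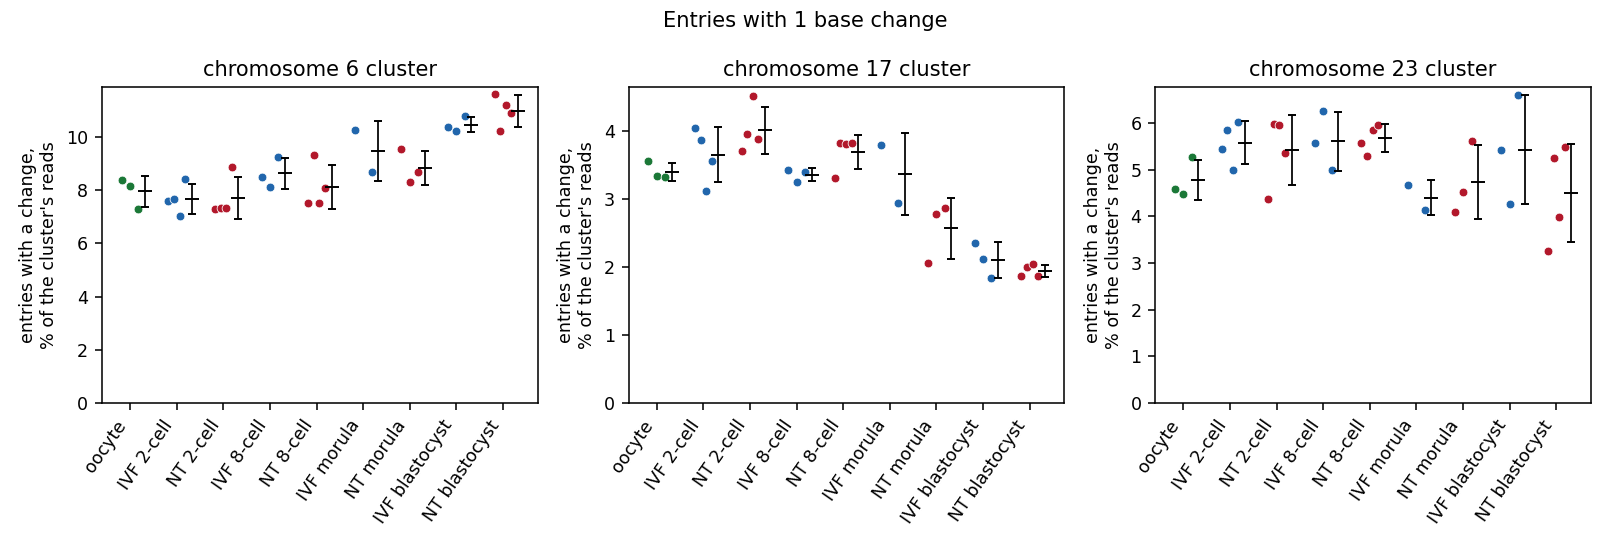
Share of each cluster's reads in arrow entries (percent) for the chromosome 6, 17 and 23 clusters in each oocyte and embryo library, by group, with mean and SD; IVF morula replicates 1 and 3 are not drawn and the panels have their own scales. In the chromosome 6 panel, oocyte libraries lie at 7.30% to 8.38% and the 7 blastocyst libraries at 10.2% to 11.6%.

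The direction of this difference depended on counting the main entry. Nor did all arrow entries rise as a share of cluster reads. The means for oocytes, IVF and NT blastocysts were 1.51%, 3.22% and 4.09% for 14G->A. They were 0.815%, 1.94% and 2.07% for 5A->G, and 0.483%, 1.06% and 1.15% for 10A->C. The 16G->C entry went the other way (1.38%, 0.557% and 0.568%). So did the changes to A from position 23 onward (0.730%, 0.407% and 0.415%). The arrow share without the risen entries was not tested. Among the cluster reads outside the main entry, arrow entries held 86.7% ± 0.674 (SD, n = 3) in oocytes, 84.3% ± 1.80 (SD, n = 3) in IVF and 85.1% ± 0.705 (SD, n = 4) in NT blastocysts. The direction there was opposite, by -2.36 points in IVF (adjusted exact permutation p = 0.514) and -1.59 points in NT blastocysts (adjusted exact permutation p = 0.171). The exact entries other than the main one also took a larger share of cluster reads in blastocysts, at 1.95% ± 0.320 (SD, n = 3) in IVF and 1.92% ± 0.150 (SD, n = 4) in NT, against 1.22% ± 0.0243 (SD, n = 3) in oocytes. Thinning the listed reads to a common depth left the arrow share nearly as it was. Entries with 1 read are listed at 0 and cannot be restored this way, so their part was not tested. At a common depth of 14463 cluster reads its expected value was 7.69% in oocytes, 10.4% in IVF and 10.9% in NT blastocysts. Over the 29 entries found in all 30 oocyte and embryo libraries other than IVF morula 1 and 3, it was 6.42%, 9.67% and 10.1%. The chromosome 17 cluster went the other way, from 3.40% in oocytes to 2.10% and 1.94% in IVF and NT blastocysts, and the chromosome 23 cluster from 4.77% to 5.43% and 4.49%. The piRNA entries of all other clusters together rose too, from 51.5% in oocytes (51.1% to 52.2%) to 54.2% in IVF blastocysts (54.0% to 54.4%). They had 54.3% in NT blastocysts (51.6% to 57.2%), which overlapped oocytes. A higher arrow share in blastocysts was thus not particular to the chromosome 6 cluster. Whether the clusters differ in this was not tested.

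A few arrow entries accounted for most of the arrow reads. The largest, 14G->A, names only the cluster and its wider listing. It had 1609, 2471 and 2290 reads in oocytes, 734, 808 and 2144 in IVF blastocysts, and 658, 2792, 1532 and 633 in NT blastocysts. As a share of cluster reads this was 1.51% ± 0.140 (SD, n = 3), 3.22% ± 0.533 (SD, n = 3) and 4.09% ± 0.354 (SD, n = 4). The lowest blastocyst library (2.69%) was above the highest oocyte library (1.60%). NT morulae lay between, at 2.80% ± 0.226 (SD, n = 3), while both 2-cell groups, at 1.61% and 1.60%, overlapped oocytes. In piRNA RPM the log2 difference from oocytes was 1.12 in IVF and 1.48 in NT blastocysts. It did not pass in the fit over all libraries (adjusted p = 0.855 and 0.671, limma) and passed without IVF morula 1 and 3 (adjusted p = 8.65e-06 and 6.57e-09, limma). On the deposited log2 scale, where the whole piRNA class is lower in blastocysts, the entry was lower instead, by a difference of -3.35 in IVF (adjusted p = 0.0556, limma) and -3.85 in NT blastocysts (adjusted p = 0.0144, limma).

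The 5A->G and 10A->C entries, whose names also hold nothing but the cluster and its wider listing, showed the same order of groups. The 5A->G entry had 1036, 1024 and 1315 reads in oocytes, 501, 376 and 1427 in IVF blastocysts, and 292, 1232, 1030 and 299 in NT blastocysts. Its mean share of cluster reads was 0.815% in oocytes, 1.94% in IVF and 2.07% in NT blastocysts, and the oocyte and blastocyst libraries did not overlap. The 10A->C entry had 680, 638 and 671 reads in oocytes, 330, 294 and 456 in IVF blastocysts, and 198 to 549 in NT blastocysts. Its mean share was 0.483%, 1.06% and 1.15%, again without overlap. Their log2 differences from oocytes in piRNA RPM were 1.28 and 1.16 in IVF and 1.38 and 1.28 in NT blastocysts. These 4 values passed only without IVF morula 1 and 3 (adjusted p = 9.05e-05, 0.000586, 7.41e-06 and 6.64e-05, limma), and with all libraries had adjusted p of 0.679 to 0.792. The deposited log2 values were lower than in oocytes here too, with differences for 5A->G and 10A->C of -3.19 and -3.30 in IVF (adjusted p = 0.0518 and 0.0336, limma) and -3.94 and -4.03 in NT blastocysts (adjusted p = 0.00729 and 0.00381, limma).

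The second largest arrow entry, 16G->C, took a smaller share of cluster reads in blastocysts. Its annotation names the cluster once with 16G->C and once with 1C->T. It had 1824, 2409 and 1529 reads in oocytes, 200, 117 and 269 in IVF blastocysts, and 172, 292, 125 and 57 in NT blastocysts. The mean share of cluster reads was 1.38% ± 0.281 (SD, n = 3) in oocytes, 0.557% ± 0.153 (SD, n = 3) in IVF and 0.568% ± 0.415 (SD, n = 4) in NT blastocysts. NT blastocyst replicate 1, at 1.19%, reached the oocyte range, and the other 6 blastocyst libraries were below it. On the deposited log2 scale the entry fell, with a difference from oocytes of -5.72 in IVF (adjusted p = 0.000138, limma) and of -6.68 in NT blastocysts (SE 1.16, adjusted p = 2.29e-06, limma), the largest fall of a member in the NT comparison. The differences in piRNA RPM were -1.28 and -1.44 (adjusted p = 0.738 and 0.634, limma).

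The largest fall in the IVF comparison was that of the 25T->A entry. It had 108, 98 and 69 reads in oocytes, 2, 0 and 2 in IVF blastocysts, and 6, 13, 0 and 0 in NT blastocysts. The log2 value fell by 6.58 in IVF blastocysts (SE 0.914, adjusted p = 6.38e-08, limma). Its share of cluster reads was 0.0673% in oocytes and 0.0749% and 0.0681% in IVF and NT 2-cell embryos, where the libraries overlapped.

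**Figure D3:**
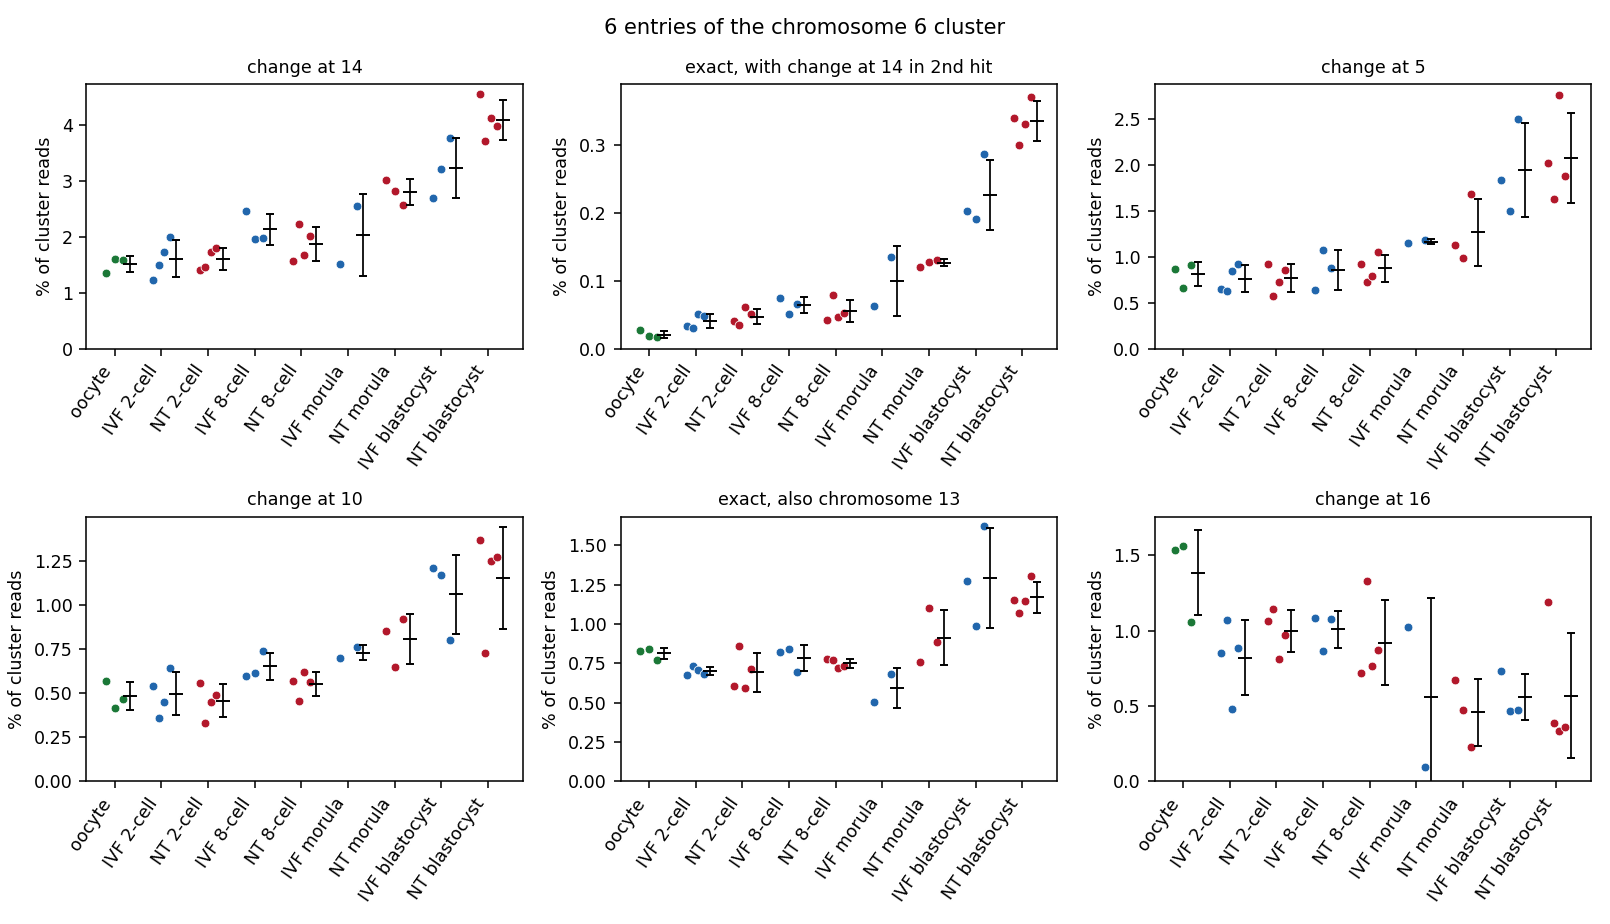
Share of cluster reads (percent) of 6 entries in each oocyte and embryo library, 1 panel per entry with its own scale, with group mean and SD; IVF morula replicates 1 and 3 are not drawn. The entries changed at positions 14, 5 and 10 and both exact entries are higher in every blastocyst library than in any oocyte library, and the entry changed at position 16 is below them in 6 of 7.

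One exact entry showed a larger relative change in share than the 14G->A, 16G->C, 5A->G and 10A->C entries. Its annotation names the cluster exactly and, second, the same cluster with 14G->A. It had 32, 28 and 24 reads in oocytes, 55, 48 and 163 in IVF blastocysts, and 49, 226, 123 and 59 in NT blastocysts, although these libraries had far fewer cluster reads. This was a piRNA RPM of 87, 60 and 55 in oocytes, 688, 620 and 994 in IVF, and 1119, 980, 1149 and 1314 in NT blastocysts. The groups were far apart. Its share of cluster reads was 0.0206% ± 0.00553 (SD, n = 3) in oocytes and rose through 0.0405% and 0.0469% in IVF and NT 2-cell embryos, 0.0637% and 0.0553% at the 8-cell stage and 0.126% ± 0.00511 (SD, n = 3) in NT morulae. It reached 0.226% ± 0.0520 (SD, n = 3) in IVF and 0.335% ± 0.0294 (SD, n = 4) in NT blastocysts, 11.0 and 16.3 times the oocyte share. NT blastocyst libraries (0.300% to 0.371%) lay above IVF ones (0.191% to 0.286%), but the difference between them in piRNA RPM did not pass (log2 0.59, adjusted p = 1, and 0.946 without IVF morula 1 and 3, limma).

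This entry is 1 of the 2 that rose in piRNA RPM in NT blastocysts, with a log2 difference of 4.08 (SE 1.42, adjusted p = 0.0458, limma). In IVF blastocysts the difference was 3.49 (SE 1.52, adjusted p = 0.142, limma), and it passed without IVF morula 1 and 3 (SE 0.429, adjusted p = 3.12e-07, limma). On the deposited log2 scale its difference was -0.92 in IVF and -1.16 in NT blastocysts (adjusted p = 0.513 and 0.322, limma). In a fit on the compared groups alone these falls passed (adjusted p = 0.0382 and 0.0248, limma), so its direction depends on the scale. The other entry that rose in NT blastocysts, a 9G->A entry that also names clusters on chromosomes 28 and 7, had 0 reads in all 3 oocyte libraries, 0, 5 and 12 in IVF and 0, 8, 7 and 13 in NT blastocysts.

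The remaining named exact entries also match a place outside the locus. The largest, shared with a chromosome 13 cluster (10507008 to 10514800), had 982, 1296 and 1116 reads in oocytes, 347, 248 and 925 in IVF blastocysts, and 167, 809, 427 and 208 in NT blastocysts. Its mean share of cluster reads was 0.813%, 1.29% and 1.17%, and the oocyte and blastocyst libraries did not overlap. In contrast, the entry shared with a chromosome 3 cluster (85601303 to 85616019) had 47, 34 and 40 reads in oocytes and 0 in all 7 blastocyst libraries. The entry shared with a chromosome X cluster (33634026 to 33643482) had 32, 39 and 36 in oocytes, 0 in the IVF blastocysts and 5, 3, 0 and 0 in NT blastocysts. The one shared with a chromosome 24 cluster (39651056 to 39683012) had 19, 46 and 39 in oocytes, 0 in the IVF blastocysts and 2, 0, 0 and 0 in NT blastocysts. The last 2, shared with clusters on chromosomes 8 and 16 and on chromosome 29, had 9 to 26 reads in oocytes and 0 to 29 in blastocysts.

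Positions of the changes were uneven. Of the oocyte reads of arrow entries, 21.4% lay at position 16, 20.1% at position 14, 10.5% at position 5, 6.37% at position 10 and 5.23% at position 25. These positions have 12, 16, 7, 11 and 15 entries. Position 1 had 17 entries and 3.82% of the reads, positions 2 to 22 had 229 entries and 86.0%, and position 23 onward had 69 entries and 10.2%. Changes written as ending in A took 90.1% of the oocyte reads from position 23 onward (37 of 69 entries), against 27.6% at positions 2 to 22.

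**Figure D4:**
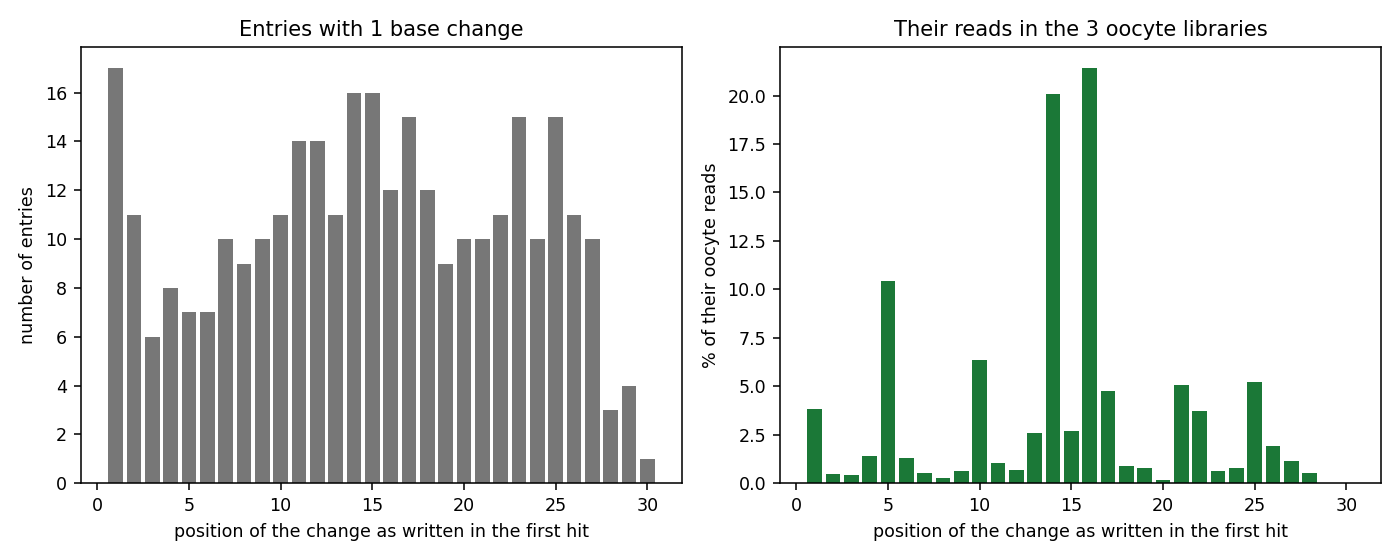
Number of arrow entries (left) and their share of oocyte arrow reads in percent (right) at each position as the annotation writes it. Positions 14 and 16 hold 20.1% and 21.4% of the reads with 16 and 12 entries.

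The changes to A from position 23 onward were highest in 2-cell embryos and lowest in blastocysts. They were 0.730% of cluster reads in oocytes (0.716% to 0.741%), 1.20% in IVF (1.07% to 1.56%) and 1.23% in NT 2-cell embryos (1.00% to 1.60%). At the 8-cell stage they were 0.979% in IVF and 1.00% in NT embryos, and in blastocysts 0.407% (0.318% to 0.570%) and 0.415% (0.242% to 0.622%). All 8 of the 2-cell libraries were above, and all 7 of the blastocyst libraries below, the 3 oocyte libraries. This class was chosen after its values were seen and was not tested. The order was not particular to this cluster. The chromosome 17 cluster had 0.587% in oocytes, 1.28% and 1.33% in IVF and NT 2-cell embryos and 0.353% and 0.396% in blastocysts. The chromosome 23 cluster had 0.605%, 1.07% and 1.18%, and 0.339% and 0.429%, and the piRNA entries of all other clusters 1.32%, 1.49% and 1.61%, and 0.432% and 0.323%. Over the 3 late entries found in all 30 libraries the order was less clear. Oocyte libraries had 0.309% to 0.380% there, IVF 2-cell libraries 0.287% to 0.504%, NT 2-cell libraries 0.385% to 0.547%, and IVF and NT blastocysts 0.229% to 0.467% and 0.195% to 0.416%. NT 2-cell libraries alone did not overlap oocytes.

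**Figure D5:**
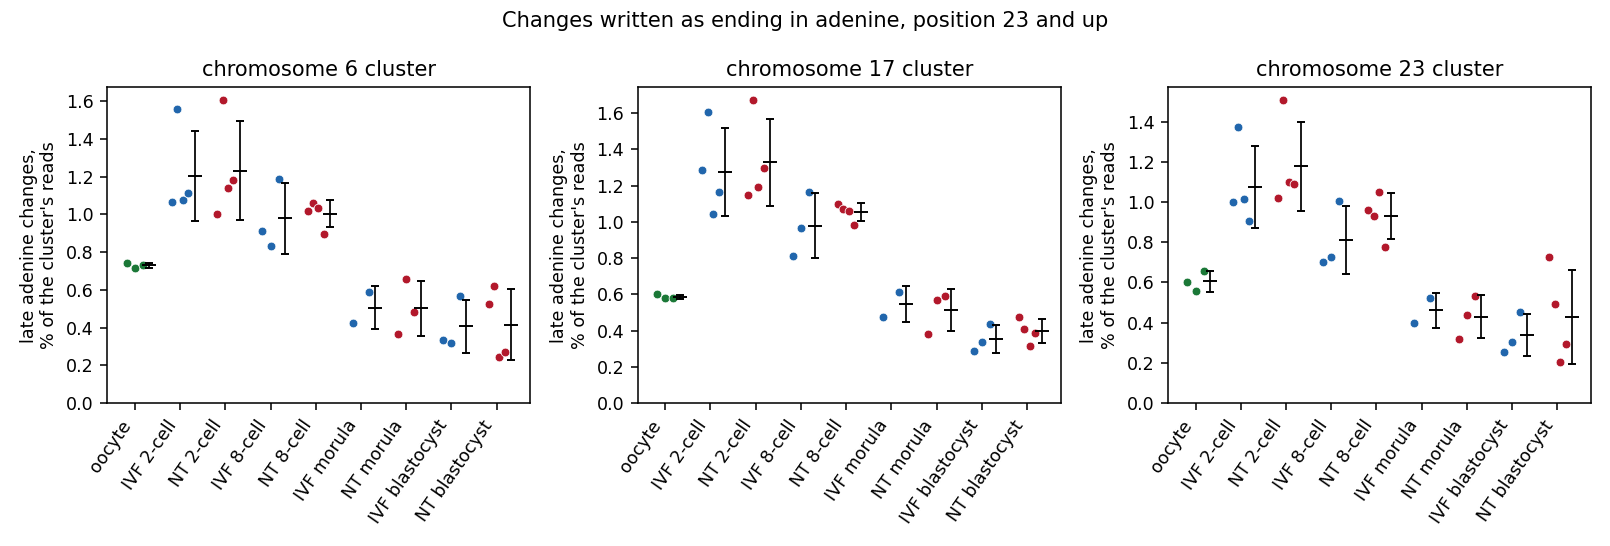
Share of each cluster's reads (percent) in entries with a change to A at position 23 or later, for the chromosome 6, 17 and 23 clusters in each oocyte and embryo library, by group, with mean and SD; IVF morula replicates 1 and 3 are not drawn. In the chromosome 6 panel the 2-cell libraries lie above the oocyte libraries (0.716% to 0.741%) and the blastocyst libraries below them.

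No difference in shares between NT and IVF embryos of the same stage passed the test. The cluster's share of piRNA reads differed (NT minus IVF) by 0.231 points at the 2-cell stage, -0.842 at the 8-cell stage and 0.200 at the blastocyst stage (adjusted exact permutation p = 0.873, 0.514 and 0.873). At the morula stage the difference was 11.6 points with all 4 IVF libraries (adjusted exact permutation p = 0.514), of which the IVF values were 0%, 32.9%, 22.8% and 33.7%. The share of arrow reads differed by 0.0245, -0.510, 1.18 and 0.522 points at the 4 stages (exact permutation p = 0.971, 0.429, 0.8 and 0.257). IVF morula replicate 1 has no cluster reads and does not enter the arrow share, and without replicate 3 (841 cluster reads) the morula difference in arrow share turned to -0.63 points. Without both, the difference in the cluster share was 0.605 points.

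By entry, limma called 10 of the 420 members higher and 0 lower in NT than in IVF 2-cell embryos, which is 2.38% of members beside 2.16% higher and 0.125% lower over all entries. The members were called about as often as any entry. Every listed entry was found in NT 2-cell replicate 4, so an entry could be absent from all IVF but not all NT 2-cell libraries. Among entries with few reads, the list thus favoured calls in this direction. Without that library, 7 members were higher and 9 lower, beside 181 and 74 of all 11398 entries tested. The 10 were 6 arrow and 4 exact entries with few reads, and 0 of them were called in a fit on the 2-cell groups alone. The largest change was that of 21T->C, with 9, 0, 0 and 0 reads in IVF and 4, 6, 5 and 27 in NT 2-cell embryos (log2 difference 2.35, SE 0.642, adjusted p = 0.0300, limma). Leaving out any 1 of 5 of the 8 libraries ended the call, with an adjusted p of 0.0672 without NT 2-cell replicate 4 (474660 cluster reads), 0.0591 without NT replicate 2, and 0.0996, 0.101 and 0.104 without IVF replicates 2, 3 and 4 (limma). At the 8-cell, morula and blastocyst stages and in blastocyst-derived cells limma called 0 members, beside 0.00831%, 0%, 0.00831% and 0% of all entries. At an unadjusted p under 0.05 there were 30, 55, 2 and 0 members, or 7.14%, 13.1%, 0.476% and 0%, beside 8.07%, 10.2%, 0.615% and 0.274% of all entries. In piRNA RPM 1 member was called higher and 0 lower in NT blastocysts (0.0431% and 0.0323% of all), and without IVF morula 1 and 3, 2 and 8 (0.28% and 0.42% of all). The 1 is 11G->A, with 0 reads in the IVF and 3, 5, 3 and 2 in the NT libraries.

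Cultured cells had almost no reads of the cluster. IVF blastocyst-derived cells had 0, 0, 0 and 11 cluster reads and NT blastocyst-derived cells 0, 2 and 25. Fibroblasts had 2, 55 and 2. In IVF blastocyst-derived replicate 4 this was 0.472% of piRNA reads (95% Wilson interval 0.264% to 0.843%, counting error only). The highest share in any such library was 1.18% (0.797% to 1.73%), in NT blastocyst-derived replicate 4. Normalised cluster reads were at least 640037-fold lower than in oocytes in IVF and 354580-fold lower in NT blastocyst-derived cells, with libraries at 0 set to 3 reads each, and 114734-fold lower in fibroblasts. These folds also rest on the size factors, with means of 0.229 in oocytes, 5.33 and 5.74 in IVF and NT blastocyst-derived cells and 6.27 in fibroblasts. The mean share of listed reads was 29.5% in oocytes and 0.00183% in fibroblasts. Most of the reads that were found came from the main entry, with 11 of 11, 2 of 2 and 19 of 25 in blastocyst-derived cells and 2, 48 and 2 in fibroblasts.

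Of the 420 members, 236 were lower in fibroblasts than in oocytes, beside 40.4% of all entries. Of the 42 with a mean of 50 or more normalised reads, 41 were lower. Members reach that mean through oocytes and embryos, so the limit largely set this count. Its share over all such entries is not given. From blastocyst to blastocyst-derived cells 26 fell in IVF (4.24% of all lower) and 14 in NT (1.88%), and 0 rose in any of these 3 comparisons, beside 1.36%, 0.93% and 0.988% higher over all. The main entry had the largest fall in each. Its log2 value fell by 16.4 from oocyte to fibroblast (SE 1.99, adjusted p = 2.88e-10, limma) and by 12.9 from IVF blastocyst to blastocyst-derived cells (SE 1.86, adjusted p = 1.57e-06, limma). Fibroblast and mesenchymal miRNAs made up 7.77% to 19.8% of listed reads in blastocyst-derived cells, 0.592% to 9.15% in fibroblasts and 0.373% to 1.48% in blastocysts, and their part in these differences was not tested.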

How the data were processed

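RNA shorter than 200 nt was sequenced on the Ion Proton platform, per the labels' protocols. Trim Galore and DESeq2 and the builds UMD3.1 and bosTau8 are named in the submitters' processing notes, without versions. The aligner is not given in the sources used here. Values deposited by the authors are in 1 table, on a log2 scale, normalised by size factors (0.0787 to 13.4) and variance-stabilised, for 12345 entries and 42 libraries. All columns were matched to a sample by name. Inverting the transform gave whole reads for 188126 of 188126 values above the lowest (tolerance 0.01 reads), with the smallest step taken as 2 reads; the absolute read scale rests on this. Listed reads (25119 to 3081186) are not whole libraries.

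The chromosome 6 members and all lists were chosen with earlier results of these data known. Tested were the 12039 entries that exceeded the lowest value by 1 log2 unit or more in 3 or more libraries. Comparisons used limma 3.58.1 in R 4.3.3, with 1 model over 12 groups, an eBayes trend and Benjamini-Hochberg adjustment at 0.05. Tested on simulated data, this fit found the changed entries but made too many calls among entries with few reads. Counts are therefore also given for entries with a mean of 50 or more normalised reads. Members reach that mean mainly through oocytes and early embryos. Reads per 1000000 piRNA reads (piRNA RPM) were tested likewise as log2(value + 1), which understates changes of low entries. Shares were compared by 2-sided exact permutation tests over all splits, adjusted over 12 tests, with Python 3.11.15, numpy 2.4.6, pandas 2.3.3 and scipy 1.17.1. Folds of groups with a library at 0 use 3 reads there. Named were the 8 exact and 4 arrow entries with most oocyte reads and the called entry with the largest change each way in each of 10 comparisons; other entries were named after their values were seen. A planned grouping by shared sequence could not be applied. Alternatives were other filters, scalings, fits, definitions of members and left-out libraries.

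No 2 libraries of a group were copies. Marker miRNA lists were fibroblast and mesenchymal (8 of 8 in the table), cumulus and granulosa (2 of 4, 1 of them also in the first list; 0.111% to 0.441% of listed reads in oocytes, 0.310% to 1.37% in blastocysts), epithelial (3 of 6; 0.0381% to 0.0992% in these groups), blood (2 of 3) and muscle and neural (2 of 5), the last 2 at most 0.0395% there.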

Additional observations from a re-analysis of the deposited data

Results flagged for a closer look

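Several measures were checked in the groups of 4 libraries, which made 24 sets of values. In 6 sets, from 4 libraries, 1 library lay far from the others by Dixon's criterion at 95%. Chance alone gives this in about 1 set of 20, and the sets are not independent, since both cluster shares come from the same reads. IVF 2-cell replicate 3 had a chromosome 6 cluster share of 31.1% of piRNA reads, against 32.3% to 32.5% in the other 3 libraries, and 22.7% of listed reads, against 28.4% to 29.6%. IVF blastocyst-derived replicate 4 was the only library of its group with cluster reads, at 0.472% of piRNA reads and 0.000363% of listed reads. NT 2-cell replicate 4, the deepest of its group and the one in which every entry was found, had 8.88% of cluster reads in arrow entries, against 7.29% to 7.33%. IVF 2-cell replicate 2 had 1.56% of cluster reads in late changes to A, against 1.07% to 1.11%. Whether depth or preparation moves with these values was not tested.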

How the results depend on the processing

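Counts of called members moved with the scaling. For IVF blastocysts against oocytes the 210 became 58 with median centring, 90 with quantile normalisation, 391 with voom on the recovered reads, 48 in piRNA RPM and 75 in piRNA RPM without IVF morula 1 and 3, or 13.8%, 21.4%, 93.1%, 11.4% and 17.9% of members beside 12.6%, 19%, 81.5%, 9.17% and 14.2% of all entries. For NT blastocysts against oocytes the 232 became 127, 103, 413, 56 and 83 in the same order (30.2%, 24.5%, 98.3%, 13.3% and 19.8%, beside 29.2%, 23.1%, 89.8%, 11.9% and 16.6%). Counting entries with a mean of 50 or more normalised reads, they were 36 and 39, with 41 for fibroblasts and 0 at the 2-cell stage. That limit largely set the direction of the first 3 counts. For fibroblasts the 236 became 121, 154 and 420 with median centring, quantile normalisation and voom (28.8%, 36.7% and 100%, beside 19.7%, 29.8% and 94.5%). For blastocyst-derived cells the 26 of IVF became 57, 420 and 46 with quantile normalisation, voom and a fit on these groups alone, and the 14 of NT became 46, 80 and 49 (13.6%, 100% and 100%, and 11%, 19% and 100%, beside 13.5%, 91.8% and 67.7%, and 10.3%, 15.4% and 77.6%). The 10 calls at the 2-cell stage became 0 with median centring, quantile normalisation, voom, both piRNA RPM settings and a fit on these groups alone, and 4 to 33 with 1 library left out (7 higher and 9 lower without NT replicate 4). At the morula stage the 0 became 4 with voom, 2 without IVF morula 1 and 3 and 0 to 38 with 1 library left out (27 without IVF replicate 2, 38 without IVF replicate 4). At the blastocyst stage it became 1 with quantile normalisation, 1 in piRNA RPM and 10 in piRNA RPM without IVF morula 1 and 3. NT blastocyst-derived cells gave 7 to 13 with 1 library left out, and IVF and NT blastocysts against oocytes 171 to 196 and 200 to 221. The only-groups fit of NT against IVF blastocyst-derived cells tested no member. For the ranges with 1 library left out and the morula counts, shares over all entries are not given here. Those counts therefore show nothing particular to the cluster.

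In piRNA RPM, 5 entries that were lower than in oocytes on the deposited scale were higher, in IVF and NT blastocysts in turn: 14G->A (1.12, 1.48), 5A->G (1.28, 1.38), 10A->C (1.16, 1.28), the exact entry shared with chromosome 13 (0.68, 0.57) and the exact entry that also names 14G->A (3.49, 4.08; 2.24 in NT with quantile normalisation). No difference in shares passed under an alternative, which the number of libraries and the adjustment over 12 tests largely fixed. The arrow share turned direction without the main entry (-2.36 and -1.59 points), and NT minus IVF at the morula stage ran from 0.605 to 15.4 points in the cluster share and from -0.63 to 4.64 in the arrow share.

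Whether replicate numbers pair samples was not settled. Same-number correlations of deviations ran from -0.087 to 0.466, with 1 to 3 samples per comparison closest to their own number. In each NT minus IVF comparison their mean exceeded that of other pairs, with 0.093 against -0.030 at the 2-cell stage. At the 8-cell stage it was 0.065 against -0.021, with 3 of 3 closest to their own number. For NT blastocysts against oocytes it was lower, -0.007 against 0.002. The permutation tests and the main fit did not use these numbers. With the replicate block, called members numbered 9 at the 2-cell stage and 215 and 229 in IVF and NT blastocysts against oocytes. They numbered 23 and 12 in IVF and NT blastocyst-derived cells, 238 in fibroblasts and 0 elsewhere. These counts were near those of the main fit. Shares over all entries are not given beside them, so they show nothing particular to the cluster. Entries with 1 read are listed at 0, so the loss of an entry with few reads cannot be told apart from low depth.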
